A study of Homo sapiens with 3 samples.

Results

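Polycomb repressive complexes 1 and 2 (PRC1 and PRC2) were described through 32 genes that encode their catalytic, core and accessory subunits, together with USP16, an enzyme that removes the PRC1 mark. The genes were taken by symbol from a count table of 24424 genes, and all 32 were found. The cells were A375SM, a human melanoma line derived from A375 by selection for metastasis, and 1 mRNA library was made for each of 3 groups. In shPRAME the cells carried a hairpin against PRAME (genotype given as PRAME knockdown), in shBAP1 a hairpin against BAP1 (BAP1 knockdown), and in shEmpty the control vector (genotype given as WT). All 3 groups had been infected with lentiviral vectors that also express green fluorescent protein, and positive cells had been selected into stable populations. The series text calls the control a non-targeting hairpin, while its name is that of an empty vector, and which it was cannot be told from the labels. Each target was lowered with 1 hairpin population, so an effect of the hairpin and an effect of losing the target cannot be told apart.

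PRC2 places methyl groups on lysine 27 of histone H3 through EZH1 or EZH2, which work together with EED, SUZ12 and the histone-binding proteins RBBP4 and RBBP7. PRC1 attaches ubiquitin to histone H2A through RING1 or RNF2, each paired with a PCGF protein. Canonical PRC1 also holds a CBX protein, which reads the PRC2 mark, and a PHC protein, while variant PRC1 holds RYBP or YAF2 instead. BAP1 removes ubiquitin from histone H2A and so works against PRC1, and PRAME is a melanoma antigen known to dampen retinoic acid signalling, and it has been linked to EZH2.

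The libraries held 18456328 (shPRAME), 14181829 (shBAP1) and 19430130 (shEmpty) counts. Levels are given in CPM (the count scaled by TMM to a common library size). Genes averaging 50 counts or more over the libraries were taken as measured, which kept 11956 genes and all 32 members. The word called is used of a ratio of 2-fold or more, in either direction, whose exact 95% interval excludes a ratio of 1. With 1 library per group there is no replicate check and no p-value, and a call says how these 3 libraries differ, which need not hold for the conditions. Intervals, given in brackets, cover counting error only. PRAME stood at 108 CPM in shPRAME, against 327 CPM in shEmpty, and BAP1 at 35.2 CPM in shBAP1, against 100.0 CPM in shEmpty. In the opposite knockdowns PRAME stood at 455 CPM in shBAP1 and BAP1 at 97.9 CPM in shPRAME. Of the melanocyte markers, SOX10 had 12019, 5442 and 9482 counts in shPRAME, shBAP1 and shEmpty and MITF had 2088, 3543 and 5807. The pigment genes PMEL (8, 34 and 6) and MLANA (7, 19 and 3) were scarce in all 3. TYR had 0, 573 and 4 counts and TYRP1 1, 1037 and 0.

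Against shEmpty, 8 of the 32 Polycomb genes were called in shPRAME and 0 in shBAP1. In shPRAME the genes called lower were EZH2, EED and RBBP7 of the PRC2 core, the PRC2 accessory gene PHF19, the chromobox gene CBX6, and YAF2 and L3MBTL2 of variant PRC1. CBX7 was the gene called higher. The share of all measured genes called in that comparison was 19.3%, with 10.2% higher and 9.08% lower. The members' share of 25% is set against it, with 1 gene higher and 7 lower. In shBAP1, with 0 members higher and 0 lower, the share of all measured genes called was 14.1%, with 5.53% higher and 8.56% lower. The median log2 ratio of the members was -0.29 in shPRAME and -0.21 in shBAP1, against -0.06 and -0.03 for all measured genes. Both comparisons share the shEmpty library.

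**Figure D1:**
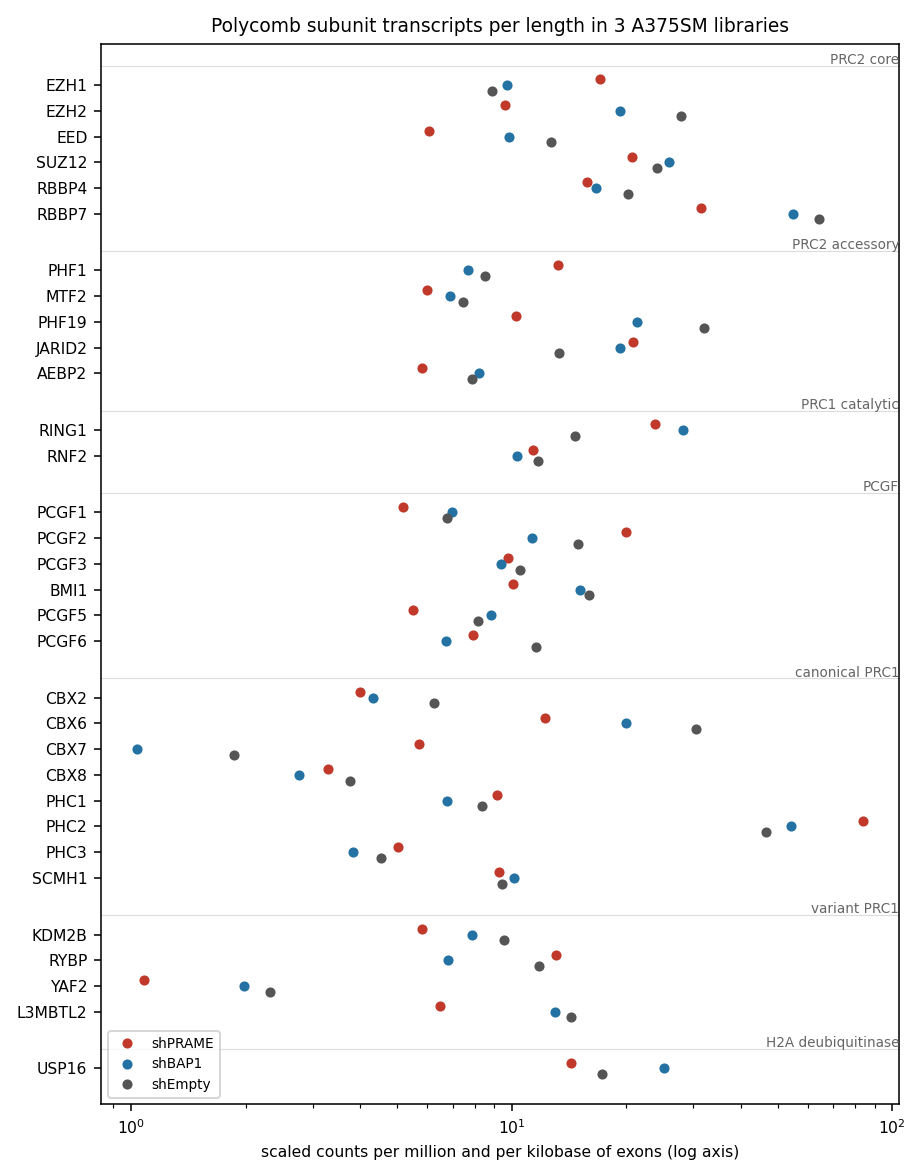
Level of each of the 32 Polycomb transcripts in shPRAME (red), shBAP1 (blue) and shEmpty (grey), in CPM per kilobase of exons on a log axis, with 1 library per group and genes grouped by role. PHC2 stood highest in shPRAME (83.7) and RBBP7 in shBAP1 (54.9) and shEmpty (64.3).

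**Figure D2:**
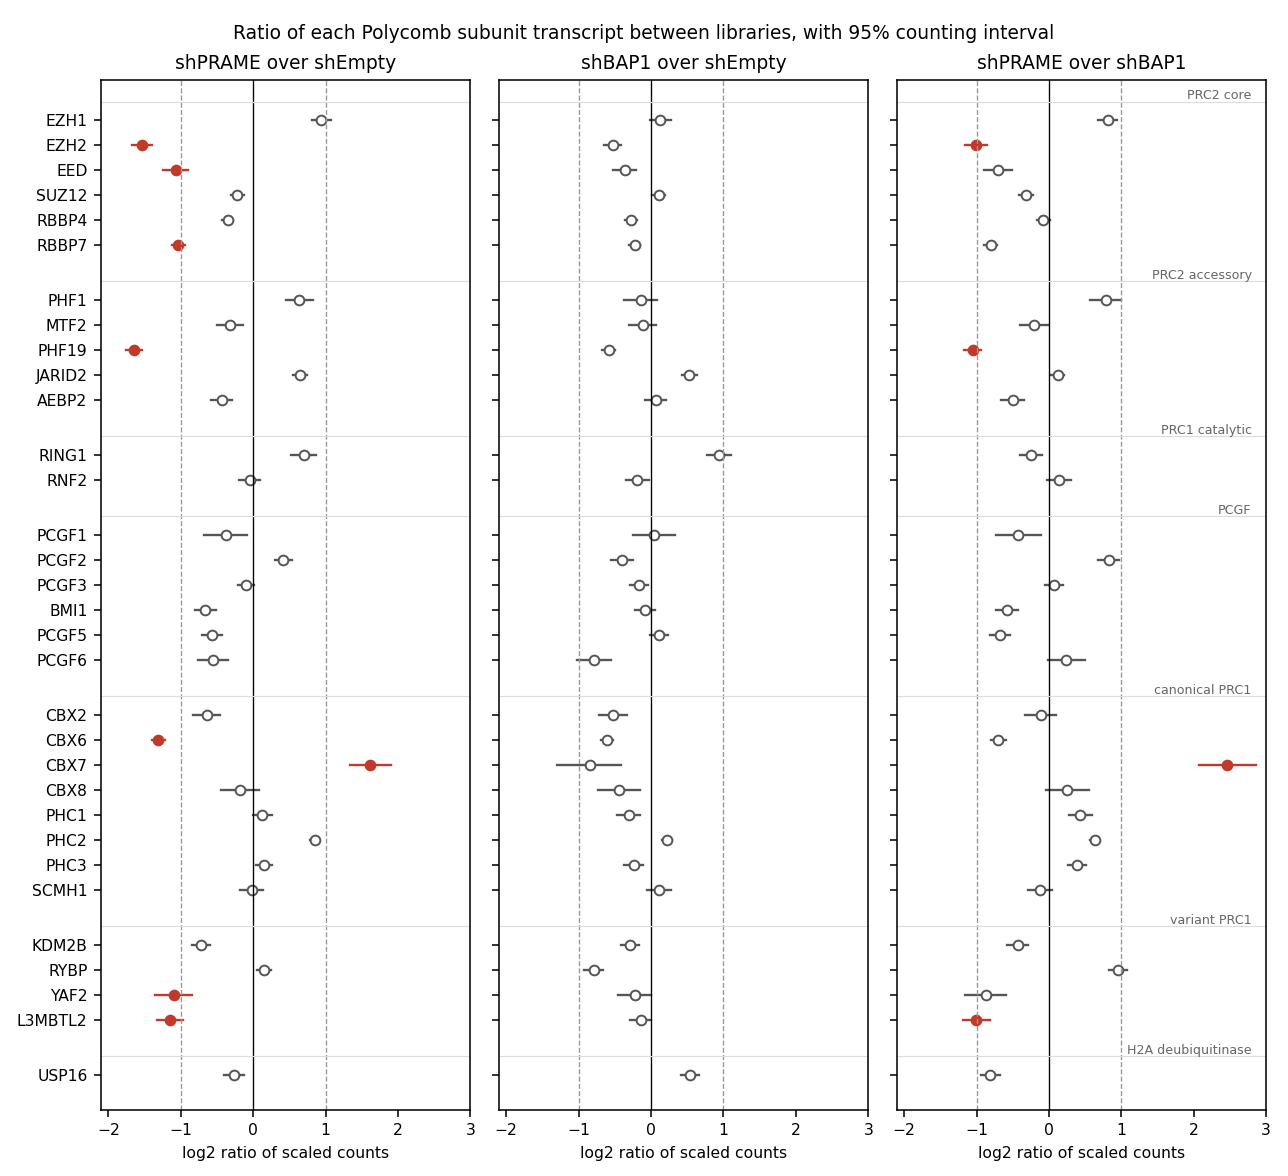
Log2 ratio of scaled counts for each Polycomb gene in the 3 comparisons, with exact 95% counting intervals as bars, dashed lines at 2-fold and filled red points for called genes. In shPRAME over shEmpty 8 genes are filled, in shBAP1 over shEmpty 0 and in shPRAME over shBAP1 4.

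In the PRC2 catalytic pair, EZH2 was called lower in shPRAME and EZH1 had a ratio above 1 that was not called. In bulk RNA such as this, fewer cells of a kind and less RNA per cell cannot be told apart. EZH2, the methyltransferase typical of dividing cells, stood at 29.4 CPM in shPRAME, 59.1 CPM in shBAP1 and 85.3 CPM in shEmpty. It was 2.90-fold lower in shPRAME than in shEmpty (2.63 to 3.20) and had a ratio of 1.44-fold downward in shBAP1 (1.33 to 1.57), within the 2-fold limit. EZH1, the paralog that predominates in resting cells, stood at 79.4 CPM in shPRAME, 45.3 CPM in shBAP1 and 41.4 CPM in shEmpty. Its ratio of 1.92-fold upward in shPRAME (1.76 to 2.10) lay just under the limit and passed it under upper-quartile scaling, and in shBAP1 the interval held no change (0.986 to 1.22).

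Within each library the balance of the pair can be read without scaling between libraries. EZH1 made up 73.0% of the counts of both genes in shPRAME (71.0% to 74.9%), 43.4% in shBAP1 (40.9% to 45.9%) and 32.6% in shEmpty (30.8% to 34.6%). Per kilobase of exons, EZH1 accounted for 64.0% of the pair in shPRAME, 33.6% in shBAP1 and 24.2% in shEmpty. EZH1 was thus the more abundant of both per length in shPRAME, and EZH2 in the other libraries. The odds of a count belonging to EZH1 were 5.57 times those of shEmpty in shPRAME (4.87 to 6.36) and 1.58 times in shBAP1 (1.38 to 1.81). Between the knockdowns, the odds in shPRAME were 3.52 times those in shBAP1 (3.05 to 4.07).

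The other core genes were uneven. EED, the subunit that binds the methylated histone, stood at 22 CPM in shPRAME, 35.8 CPM in shBAP1 and 46.1 CPM in shEmpty, and was 2.10-fold lower in shPRAME than in shEmpty (1.86 to 2.37). RBBP7 stood at 85.6, 150 and 175 CPM in shPRAME, shBAP1 and shEmpty and was 2.05-fold lower in shPRAME (1.93 to 2.17). These calls lay close to the 2-fold limit, at log2 ratios of -1.07 and -1.03, and both ended under upper-quartile scaling and after removal of the trend with gene length. The RBBP7 call also ended under total-count scaling, and the EED call when chromosome medians were subtracted. RBBP4, the close paralog of RBBP7, stood at 127, 134 and 162 CPM, a ratio of 1.28-fold downward in shPRAME. SUZ12, the scaffold of the complex, stood at 92.9, 116 and 108 CPM and had the ratio nearest to no change of the 6 core genes in both comparisons with shEmpty, 1.16-fold downward in shPRAME and 1.08-fold upward in shBAP1. Summed over the core genes, the level was 436 CPM in shPRAME, 540 CPM in shBAP1 and 618 CPM in shEmpty.

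Among the accessory genes, the 3 Polycomb-like proteins PHF1, MTF2 and PHF19 compete for the same place on PRC2. PHF19 stood at 48.8 CPM in shPRAME, 102 CPM in shBAP1 and 152 CPM in shEmpty. It had the lowest log2 ratio of all members in shPRAME, -1.64, or 3.12-fold lower than in shEmpty (2.89 to 3.36), and in shBAP1 its ratio was 1.5-fold downward (1.41 to 1.60). PHF1 was not called and stood at 30.8 CPM in shPRAME, 17.9 CPM in shBAP1 and 19.8 CPM in shEmpty, a ratio of 1.56-fold upward (1.36 to 1.78). MTF2 stood at 24.7, 28.5 and 30.8 CPM in shPRAME, shBAP1 and shEmpty.

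PHF19 accounted for 34.8% of the 3 Polycomb-like genes per length in shPRAME, 59.4% in shBAP1 and 66.7% in shEmpty. For PHF1 the shares were 44.9%, 21.4% and 17.7%, so that PHF1 was the most abundant of the 3 per length in shPRAME and PHF19 in the other libraries. That order in shPRAME depends on the exon lengths used. By counts PHF19 was still the largest of the 3 there, at 46.8% against 29.5% for PHF1. The odds of a count belonging to PHF19 were 3.42 times lower in shPRAME than in shEmpty (3.04 to 3.85) and 1.37 times lower in shBAP1 (1.22 to 1.55). JARID2 and AEBP2 together mark the alternative form of PRC2, so their shares are not those of subunits that replace each other. JARID2 stood at 123 CPM in shPRAME, 113 CPM in shBAP1 and 78.6 CPM in shEmpty, ratios of 1.56-fold (1.46 to 1.67) and 1.44-fold (1.34 to 1.55) upward. AEBP2 stood at 34.1, 48.2 and 46.2 CPM. JARID2 made up 78.3% of the counts of that pair in shPRAME (76.7% to 79.8%), 70.1% in shBAP1 (68.2% to 71.9%) and 63.0% in shEmpty (61.0% to 64.9%).

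**Figure D3:**
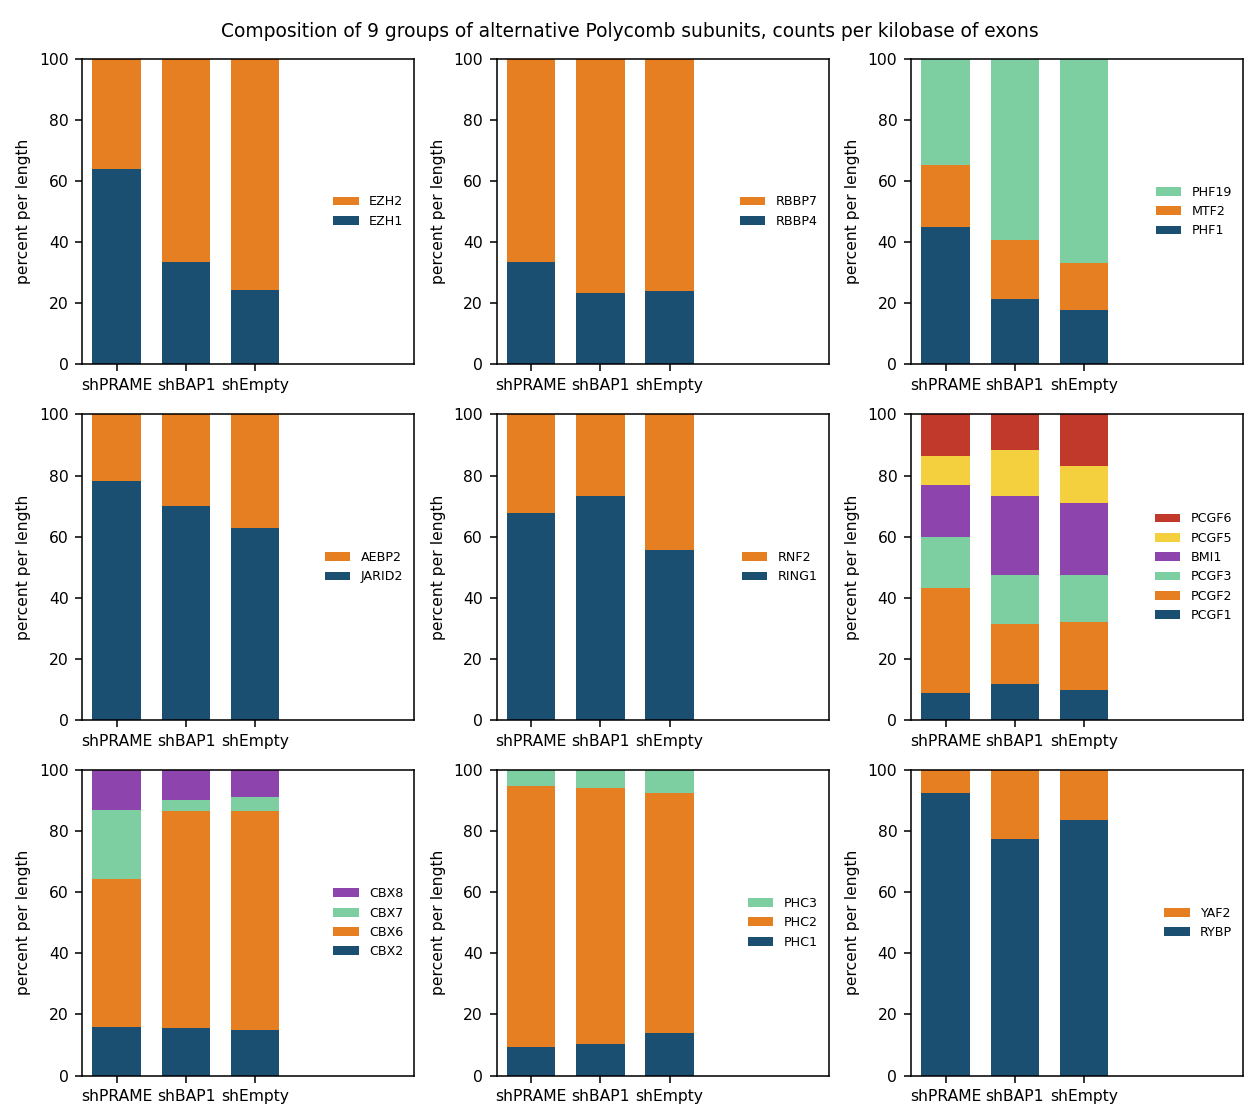
Share of each gene, in percent of counts per kilobase of exons, within 9 groups of Polycomb subunits. Stacked bars show shPRAME, shBAP1 and shEmpty. JARID2 and AEBP2 form a group but are not alternatives to each other. EZH1 fills 64.0% of its bar in shPRAME, 33.6% in shBAP1 and 24.2% in shEmpty, and CBX7 fills 22.6%, 3.70% and 4.41% of its bar.

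Promoter windows are shown for EZH2 and PHF19, the PRC2 genes with the lowest ratios in shPRAME, and for EZH1, the core gene with the highest ratio there. Windows of 300 bases (250 before to 50 after the start, RefSeq, GRCh38.p14) were found for 30 of the 32 members, some with several windows. They were searched on both strands for 3 forms of the E2F motif, the first spelled TTCGCGC, another with the letters TTGGCGC and the last with the letters TTCCCGC. The search also took in CCAAT, the box bound by NF-Y, and the cell cycle element known as CHR, spelled TTTGAA. E2F factors drive genes of DNA replication, and EZH2 is a known E2F target. Capitals mark every match, a match on the other strand being written as its reverse complement (ATTGG for CCAAT). The EZH2 window (chr7:148884242-148884541, minus strand, the upstream of 2) held 4 CCAAT boxes and 1 E2F motif. The EZH1 window (chr17:42744991-42745290, minus strand) held none of these letters. The PHF19 window (chr9:120877139-120877438, minus strand, the upstream of 2) held 1 CCAAT box and 1 E2F motif.
EZH2: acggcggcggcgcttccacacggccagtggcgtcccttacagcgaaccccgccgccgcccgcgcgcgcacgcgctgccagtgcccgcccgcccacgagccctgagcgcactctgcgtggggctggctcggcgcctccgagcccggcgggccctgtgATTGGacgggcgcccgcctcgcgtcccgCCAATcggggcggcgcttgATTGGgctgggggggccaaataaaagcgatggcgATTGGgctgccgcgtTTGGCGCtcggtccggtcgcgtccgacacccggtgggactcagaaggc
EZH1: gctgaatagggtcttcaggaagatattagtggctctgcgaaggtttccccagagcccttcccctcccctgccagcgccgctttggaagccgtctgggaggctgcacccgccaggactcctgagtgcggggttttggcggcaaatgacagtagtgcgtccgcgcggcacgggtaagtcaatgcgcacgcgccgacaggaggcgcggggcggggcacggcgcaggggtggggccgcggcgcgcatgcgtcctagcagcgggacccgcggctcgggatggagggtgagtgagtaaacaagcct
PHF19: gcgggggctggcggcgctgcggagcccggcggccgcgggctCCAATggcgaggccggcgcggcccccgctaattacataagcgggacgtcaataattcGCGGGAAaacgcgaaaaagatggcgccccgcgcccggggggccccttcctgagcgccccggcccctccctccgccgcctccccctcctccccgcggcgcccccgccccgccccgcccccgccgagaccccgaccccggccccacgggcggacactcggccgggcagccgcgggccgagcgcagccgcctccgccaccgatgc

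An E2F motif of any of the 3 forms was present in a window of 8 of the 30 members, or 26.7%, against 13.1% of the 27305 genes with a window in the table. Among measured genes with a window the share was 21.9%. Of the 7 genes called lower in shPRAME, 3 held such a motif (EZH2, RBBP7 and PHF19) and 5 held a CCAAT box. The other members with an E2F motif, SUZ12, RBBP4, MTF2, RNF2 and SCMH1, were not called in shPRAME. The window of EED, which was called lower, held no E2F motif. A CCAAT box was in a window of 13 of the 30 members, or 43.3%, against 44.2% of measured genes and 39.7% of all genes with a window. The CHR letters were in a window of 4 members, or 13.3%, against 13.8% of measured genes and 18.2% of all genes with a window. A match describes the letters of the window and is not a bound site.

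RING1 and RNF2, the ubiquitin ligases of PRC1, differed in how they stood. RING1 stood at 41.7 CPM in shPRAME, 49.5 CPM in shBAP1 and 25.8 CPM in shEmpty. Its ratio was 1.92-fold upward in shBAP1 (1.71 to 2.16), the highest of all members in that library, and 1.62-fold upward in shPRAME (1.44 to 1.82). The shBAP1 ratio lay just under the limit and was called under total-count and upper-quartile scaling. RNF2, whose product carries most of the ligase activity in many cell types, stood at 41.0, 37.2 and 42.4 CPM in shPRAME, shBAP1 and shEmpty. RING1 made up 50.4% of the counts of the pair in shPRAME (47.9% to 53%), 57.1% in shBAP1 (54.3% to 59.8%) and 37.8% in shEmpty (35.1% to 40.5%).

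RING1, JARID2 and PHF1 lie on chromosome 6, whose measured genes stood higher as a whole in shBAP1, with a median log2 ratio of 0.40 over 573 genes. After that median was subtracted, RING1 was at 0.54 on the log2 scale in shBAP1, JARID2 at 0.12 and PHF1 at -0.55. In shPRAME the median of chromosome 6 was 0.03, and the 3 genes stood at 0.70, 0.65 and 0.64 before subtraction. EZH2 lies on chromosome 7, whose median in shPRAME was 0.39, so that EZH2 was at -1.93 relative to its chromosome. The genes of chromosome 12, which carries YAF2, KDM2B, AEBP2 and PHC1, had a median of -0.35 in shPRAME. Relative to it YAF2 was at -0.75 and no longer called, and KDM2B at -0.37. Whether copy number differs between the populations was not tested.

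**Figure D4:**
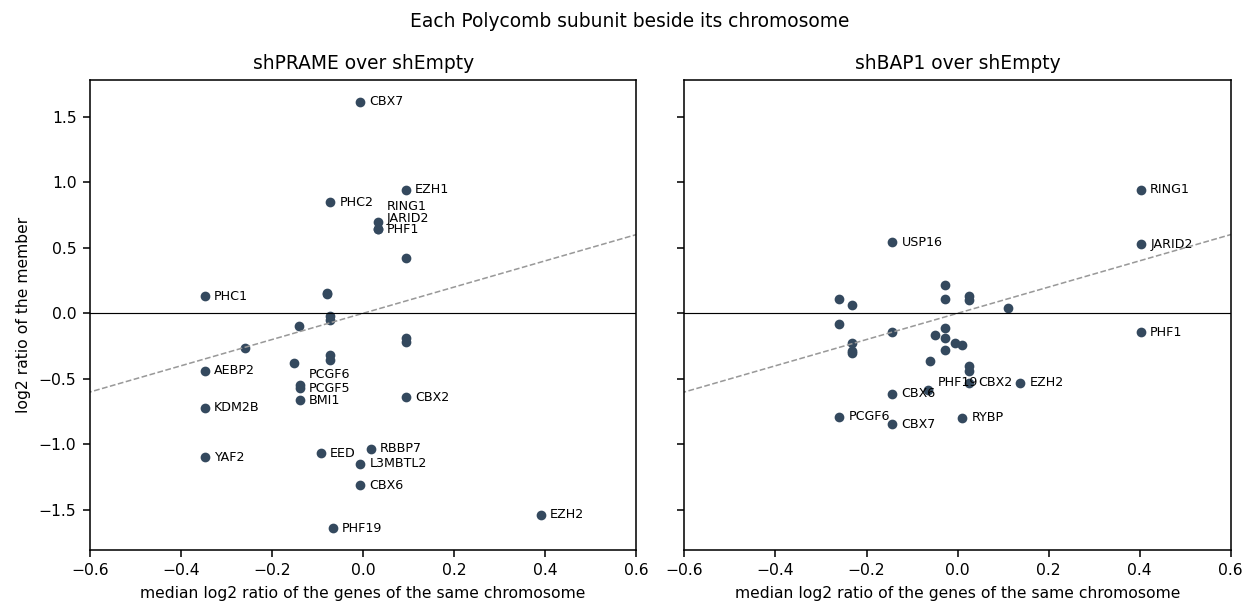
Log2 ratio of each Polycomb gene (vertical axis) against the median log2 ratio of all measured genes on its chromosome (horizontal axis) for shPRAME over shEmpty (left) and shBAP1 over shEmpty (right), with a dashed line of equality. RING1 and JARID2 lie at a chromosome median of 0.40 in shBAP1, and EZH2 lies far below the line at 0.39 in shPRAME.

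The 6 PCGF genes define which form of PRC1 is built, with PCGF2 and BMI1 (PCGF4) in canonical complexes and the others in variant complexes. None was called in either comparison with shEmpty. PCGF2 stood at 70.2 CPM in shPRAME, 39.7 CPM in shBAP1 and 52.5 CPM in shEmpty, a ratio of 1.34-fold upward in shPRAME (1.23 to 1.45) and 1.32-fold downward in shBAP1 (1.19 to 1.47). BMI1, a regulator of the CDKN2A locus, stood at 34.6, 51.9 and 54.9 CPM, a ratio of 1.58-fold downward in shPRAME (1.43 to 1.75). Per length, PCGF2 made up 34.2% of the 6 genes in shPRAME, 19.4% in shBAP1 and 22% in shEmpty, and BMI1 17.3%, 26.0% and 23.5%. PCGF2 was therefore the most abundant PCGF transcript per length in shPRAME and BMI1 in shBAP1. In shEmpty BMI1 and PCGF2 lay close together, with 1028 and 984 counts, and their order there is uncertain.

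PCGF6, found in a complex with L3MBTL2, stood at 17.7 CPM in shPRAME, 15 CPM in shBAP1 and 25.8 CPM in shEmpty, with a ratio of 1.73-fold downward in shBAP1 (1.47 to 2.03). PCGF5 was at 40.0, 64.0 and 59.5 CPM and had a ratio of 1.49-fold downward in shPRAME (1.35 to 1.63). PCGF1, the partner of KDM2B and BCOR, stood at 9.30, 12.5 and 12.1 CPM and PCGF3 at 62.6, 59.8 and 67.1 CPM. Summed over the family, the level was 234 CPM in shPRAME, 243 CPM in shBAP1 and 272 CPM in shEmpty.

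Of the chromobox genes, whose products bring canonical PRC1 to methylated histone H3, CBX7 and CBX6 stood apart. CBX7 stood at 23.4 CPM in shPRAME (427 counts), 4.24 CPM in shBAP1 (63 counts) and 7.63 CPM in shEmpty (143 counts). It was 3.06-fold higher in shPRAME than in shEmpty (2.53 to 3.72), had a ratio of 1.80-fold downward in shBAP1 (1.33 to 2.46), and was 5.50-fold higher in shPRAME than in shBAP1 (4.22 to 7.29). CBX6 stood at 75.2 CPM in shPRAME, 122 CPM in shBAP1 and 187 CPM in shEmpty. It was 2.48-fold lower in shPRAME than in shEmpty (2.33 to 2.65) and had a ratio of 1.53-fold downward in shBAP1 (1.45 to 1.62). Both genes lie on chromosome 22, whose median log2 ratio in shPRAME was -0.01.

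The remaining chromobox genes were less uneven. CBX2 stood at 21.6, 23.3 and 33.6 CPM in shPRAME, shBAP1 and shEmpty, ratios of 1.56-fold (1.37 to 1.77) and 1.44-fold (1.26 to 1.65) downward. CBX8 stood at 12.5, 10.5 and 14.2 CPM. Per length, CBX7 made up 22.6% of the 4 chromobox genes in shPRAME, 3.70% in shBAP1 and 4.41% in shEmpty, and CBX6 48.5%, 71.0% and 72%. CBX6 thus remained the most abundant of the 4 per length in each library. The windows of this pair are shown because both genes encode chromobox proteins, lie on the same chromosome and were called in opposite directions in shPRAME. The CBX7 window (chr22:39152631-39152930, minus strand) held 1 CCAAT box, and the CBX6 window (chr22:38872167-38872466, minus strand) held none of the letters searched.
CBX7: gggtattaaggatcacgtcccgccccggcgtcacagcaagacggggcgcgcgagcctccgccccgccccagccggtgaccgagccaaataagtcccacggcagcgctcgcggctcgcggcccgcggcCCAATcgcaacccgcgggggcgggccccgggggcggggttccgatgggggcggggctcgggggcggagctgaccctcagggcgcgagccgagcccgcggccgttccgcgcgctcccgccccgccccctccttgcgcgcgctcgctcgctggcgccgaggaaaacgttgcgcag
CBX6: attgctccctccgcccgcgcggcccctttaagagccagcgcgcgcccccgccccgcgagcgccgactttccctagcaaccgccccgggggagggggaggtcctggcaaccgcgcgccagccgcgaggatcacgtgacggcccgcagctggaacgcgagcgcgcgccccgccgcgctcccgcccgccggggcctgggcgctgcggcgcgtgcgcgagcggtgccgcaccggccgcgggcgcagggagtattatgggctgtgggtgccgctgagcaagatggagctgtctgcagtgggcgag

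PHC proteins polymerise and cluster PRC1 on chromatin. PHC2 was the most abundant of the 3 PHC genes per length, at 349 CPM in shPRAME, 226 CPM in shBAP1 and 194 CPM in shEmpty, a ratio of 1.80-fold upward in shPRAME (1.73 to 1.87) and 1.16-fold upward in shBAP1 (1.11 to 1.22). PHC1 stood at 48.9, 36.2 and 44.7 CPM and PHC3 at 72.1, 55.1 and 65 CPM. PHC2 made up 85.5% of the PHC genes per length in shPRAME, 83.6% in shBAP1 and 78.3% in shEmpty. SCMH1, a sterile-alpha-motif protein that joins PRC1, stood at 35.5, 38.7 and 36 CPM, and its interval held no change in all 3 comparisons.

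In variant PRC1, RYBP and YAF2 are alternative partners of RING1 and RNF2. YAF2 stood at 9.79 CPM in shPRAME, 17.9 CPM in shBAP1 and 21.0 CPM in shEmpty and was 2.14-fold lower in shPRAME than in shEmpty (1.79 to 2.57). RYBP stood at 94.5 CPM in shPRAME, 49.0 CPM in shBAP1 and 85 CPM in shEmpty, a ratio of 1.11-fold upward in shPRAME (1.04 to 1.19) and 1.74-fold downward in shBAP1 (1.59 to 1.90). Each of both genes was therefore lowest in a different library. RYBP made up 90.6% of the counts of the pair in shPRAME (89.2% to 91.9%), 73.2% in shBAP1 (70.3% to 75.9%) and 80.2% in shEmpty (78.4% to 81.9%).

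L3MBTL2, a reader of the PCGF6 form, stood at 21.4 CPM in shPRAME, 42.8 CPM in shBAP1 and 47.3 CPM in shEmpty and was 2.21-fold lower in shPRAME than in shEmpty (1.96 to 2.50). KDM2B, which brings the PCGF1 form to CpG islands, stood at 42.5, 57.3 and 70.0 CPM, a ratio of 1.65-fold downward in shPRAME (1.51 to 1.80). USP16, which removes ubiquitin from histone H2A as BAP1 does, stood at 43.4 CPM in shPRAME, 76.0 CPM in shBAP1 and 52.1 CPM in shEmpty. Its ratio was 1.46-fold upward in shBAP1 (1.34 to 1.59) and 1.2-fold downward in shPRAME (1.09 to 1.32). In shBAP1 USP16, JARID2 and RING1 had the 3 highest ratios of the members.

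In the direct comparison 4 members were called in shPRAME against shBAP1, 1 higher (CBX7) and 3 lower (EZH2, PHF19 and L3MBTL2), a share of 12.5% beside 25.1% of all measured genes, with 14.2% higher and 10.9% lower. At 1.5-fold 6 members were higher and 9 lower, beside 48.1% of all measured genes, with 23.8% higher and 24.3% lower. EZH2 was 2.01-fold lower (1.80 to 2.24), PHF19 2.08-fold (1.91 to 2.26) and L3MBTL2 2-fold (1.76 to 2.28). The EZH2 and L3MBTL2 calls lay at the limit and ended under upper-quartile and DESeq2 scaling, with a pseudocount of 1 CPM and after removal of the length trend. RYBP had a ratio of 1.93-fold upward (1.77 to 2.11), PCGF2 of 1.77-fold upward (1.60 to 1.95), and USP16 of 1.75-fold downward (1.60 to 1.92).

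Around the limit of 2-fold, RBBP7 (log2 ratio -1.03) and EED (-1.07) were the members just inside it in shPRAME over shEmpty, and EZH1 (0.94) and PHC2 (0.85) those just outside. In shBAP1 over shEmpty RING1 (0.94) and CBX7 (-0.85) came nearest. At a limit of 1.5-fold, 6 members were higher and 10 lower in shPRAME, beside 41% of all measured genes called, with 19.4% higher and 21.6% lower. In shBAP1 1 was higher (RING1) and 4 lower (PCGF6, CBX6, CBX7 and RYBP), beside 30.5% of all measured genes, with 12.7% higher and 17.8% lower. The ratio lay below 1 for 22 of the 32 members in shPRAME, as it did for 22 in shBAP1. Of the 11956 measured genes it lay below 1 for 6413 in shPRAME and 6268 in shBAP1.

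Genes of other parts of the pathway were counted in the same way. Of 26 measured genes associated with Polycomb complexes outside the 32, 1 was higher in shPRAME, USP11 (2.64-fold, 2.47 to 2.83), a deubiquitinase, and 1 lower, TFDP1 (2.79-fold, 2.63 to 2.95), the partner of E2F factors. In shBAP1 0 were higher and 2 lower, SCML2 (2.57-fold, 2.05 to 3.25) and C10orf12 (2.02-fold, 1.59 to 2.60). Of 14 genes of H2A deubiquitinases and of partners of BAP1 in its complex, MBD5, which encodes a protein with a methyl-CpG-binding domain, was 3.17-fold higher in shPRAME (2.38 to 4.26), and BAP1 itself was the gene called lower in shBAP1. Of 7 genes of H3K27 demethylases and the MLL3/4 complex, KDM6B, a demethylase that reverses the PRC2 mark, was 2.25-fold higher in shPRAME (2.07 to 2.45) and none was called in shBAP1. Of 20 SWI/SNF genes, which counter Polycomb at chromatin, DPF1 was 3.18-fold lower in shPRAME (2.20 to 4.67) and none was called in shBAP1. The medians of these 4 lists lay between -0.15 and 0.00 on the log2 scale in shPRAME and between -0.16 and -0.07 in shBAP1. Of all measured genes 19.3% were called in shPRAME and 14.1% in shBAP1, with medians of -0.06 and -0.03.

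Genes known as classical Polycomb targets, mostly HOX and other developmental regulators, were next. Of 61 in the table, 39 were measured. In shPRAME 6 were higher and 1 lower (17.9% called, beside 19.3% of all measured genes, median log2 ratio 0.33). HOXA5 was 3.98-fold higher (3.42 to 4.65) and HOXD13 3.64-fold lower (2.77 to 4.84). HOXA11, with 51, 95 and 7 counts in shPRAME, shBAP1 and shEmpty, and the cell cycle inhibitor gene CDKN2A, with 102, 21 and 30, averaged 51 counts each and so passed the minimum of 50 only through the libraries in which they were high. Their ratios in shPRAME, 7.47-fold (3.37 to 19.5) and 3.48-fold (2.30 to 5.42) upward, are therefore descriptions of genes that had to differ. In shBAP1 1 was higher, HOXA11, and 12 were lower (33.3% called, beside 14.1% of all measured genes, median -0.48). BMP2, a bone morphogenetic protein, was 9.19-fold lower there (7.11 to 12.1), FOXF1 7.64-fold (5.81 to 10.2) and WNT5A 7.55-fold (6.94 to 8.23). The ratio of HOXA11 there was 17.1-fold upward (8 to 43.8), and it too describes a gene that had to differ. The genes called include HOXA11 in all 3 comparisons. They include CDKN2A in shPRAME against shEmpty and against shBAP1. In shPRAME against shBAP1 17 were higher and 2 lower (48.7% called, beside 25.1% of all measured genes, median 0.76).

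Cell cycle genes were counted beside the PRC2 genes. Of 36 genes of E2F control and mitosis, 33 were called lower in shPRAME and 0 higher, with a median log2 ratio of -1.62. In shBAP1 8 were called lower and 0 higher, with a median of -0.65. Of all measured genes 9.08% were called lower in shPRAME and 8.56% in shBAP1, with medians of -0.06 and -0.03. RRM2, a subunit of ribonucleotide reductase, was 11.7-fold lower in shPRAME than in shEmpty (10.7 to 12.7), and CDC25A, a phosphatase that activates cyclin-dependent kinases, 6.91-fold (5.71 to 8.43). The summed level of the 36 genes was 2568 CPM in shPRAME, 4303 CPM in shBAP1 and 7033 CPM in shEmpty. EZH2 and EED are known E2F targets in dividing cells, and the part that proliferation has in the members' ratios was not tested. Markers of other cell types were summed in the same way. Keratinocyte markers came to 28.7, 54.9 and 35 CPM in shPRAME, shBAP1 and shEmpty, mostly from KRT10. Endothelial markers came to 51.5, 13.3 and 79.5 CPM, mostly from KDR and, in shPRAME, TIE1, and immune cell markers to 150, 65.5 and 51.7 CPM, mostly from CD68. KRT1, CDH5, CD3E and TYROBP had 0 counts in all 3 libraries. Fibroblast markers came to 807, 284 and 73.4 CPM. Of the fibroblast markers, COL1A2 had 12250, 2529 and 119 counts in shPRAME, shBAP1 and shEmpty, while COL1A1 had 23, 3 and 1. Their part in the members' ratios was not tested.

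**Figure D5:**
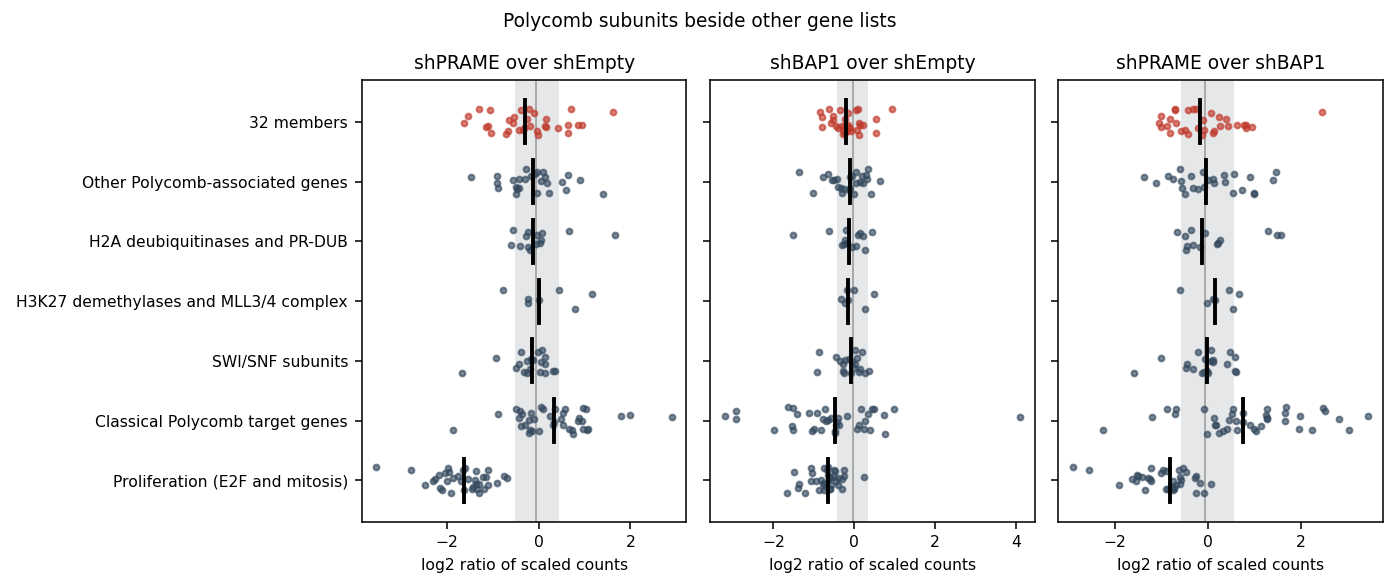
Log2 ratio of every measured gene of 7 lists in the 3 comparisons, with the list median as a black bar, the 32 Polycomb members in red and the interquartile range of all measured genes as a grey band around their median. The medians of the members are -0.29, -0.21 and -0.17, and those of the proliferation genes -1.62, -0.65 and -0.81.

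Some of these values rest on exons shared with another gene, and whether counting used the strand is not given in the sources used here. In the GENCODE 29 annotation, 32% of the exon bases of PCGF2 overlap CISD3 on the opposite strand, 21.3% of those of RBBP4 overlap SYNC and 20.6% of those of PHC1 overlap M6PR. CISD3 had 242, 450 and 490 counts in shPRAME, shBAP1 and shEmpty, SYNC 969, 920 and 1513, and M6PR 1390, 4708 and 2775. BMI1 shares 29.2% of its exon bases with the readthrough gene COMMD3-BMI1, which had 0 counts in all 3 libraries. RBBP4 has 6 named pseudogenes, and EZH2, RNF2, BMI1 and PHC1 have 1 each. SUZ12P1, a copy of SUZ12, had 78, 45 and 68 counts. The values of PCGF2, RBBP4, PHC1, BMI1, SUZ12, EZH2 and RNF2 are uncertain to that extent.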

How the data were processed

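RNA was measured in 1 library each of shPRAME, shBAP1 and shEmpty. The authors deposited whole-number read counts by gene symbol. The submitters' processing notes name hg19 (GRCh37) and the tools TopHat, Cufflinks, FastQC and edgeR. Which program counted the reads, and on which annotation, is not given in the sources used here. Of 24424 genes, 4896 were without a count in all libraries, and 0 columns were left unused. Totals of 14181829 to 19430130 counts set the precision, and intervals cover counting error only.

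Scaling used TMM (edgeR 4.0.16 in R 4.3.3), ratios had no pseudocount, and the 11956 genes averaging 50 counts or more were measured. Ratios carry exact 95% intervals from the conditional binomial distribution, levels are scaled counts, and shares carry exact (Clopper-Pearson) 95% binomial intervals. Odds ratios are conditional estimates with exact intervals. No p-value was computed. Exon length and chromosome came from GENCODE 29 (GRCh38), matched by symbol or older symbol. They served to group genes, to set levels per length and to remove chromosome medians and the length trend. The same annotation gave the exon overlaps, and promoters came from RefSeq (GRCh38.p14). Every member is named, and from each other list at most 4 called genes per comparison with shEmpty, those with the largest ratio, PRAME, BAP1, cell type markers and overlapping genes apart. The members and lists were chosen with earlier results of these data known. Alternatives were other scalings, count minima, fold limits, a pseudocount, and removal of chromosome medians and of the length trend (local regression, span 0.3). The calls were also run on simulated counts that held counting error only. That run cannot speak to the spread between libraries of a condition. For the alternative DESeq2 scaling, size factors came from DESeq2 1.42.0. Other steps ran in Python 3.11.15 (matplotlib 3.10.9, statsmodels 0.14.6, pandas 2.3.3, scipy 1.17.1, numpy 2.4.6).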

Additional observations from a re-analysis of the deposited data

How the results depend on the processing

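Each group has 1 library, so none could be left out, and counting error is the limit of depth that could be measured. No paired analysis was possible because the groups have 1 library each. No called member changed sign under any alternative run, but fold limits and count minima leave a ratio as it is. Called ratios were also 2-fold or more, so a small shift could not turn them, and the unchanged signs are no check. The count called lower in shPRAME against shEmpty (7) was 1 at a 3-fold limit and 3 where the whole interval had to lie beyond 2-fold, and the count called higher (1) was 6 at a 1.5-fold limit and 2 under upper-quartile scaling. In shBAP1 against shEmpty the count called higher (0) was 1 under total-count and upper-quartile scaling and at 1.5-fold, and the count called lower (0) was 4 at 1.5-fold. In shPRAME against shBAP1 the count called higher (1) was 3 after chromosome medians were subtracted and 6 at 1.5-fold. The count called lower there (3) was 1 under DESeq2 and upper-quartile scaling, with a pseudocount of 1 CPM and after removal of the length trend, 0 at 3-fold and with the whole interval beyond 2-fold, and 9 at 1.5-fold. The fold limits act by their construction. For the other settings the cause was not tested. With total-count scaling, all measured genes in shBAP1 had a median log2 ratio of 0.09, against -0.03 with TMM, and the members one of -0.09, against -0.21. Of the 96 member ratios, 33 left their counting interval when chromosome medians were subtracted, 8 under total-count scaling, 4 under upper-quartile scaling and 1 after removal of the length trend.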
